A study of Mus musculus with 12 samples.

Results

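The mRNAs described here encode 52 proteins that move cargo between the endoplasmic reticulum (ER) and the Golgi: the COPII and COPI vesicle coats, the factors that organise ER exit sites, Golgi tethers, and the membrane receptors that load cargo into vesicles. The rule that defines the group goes by protein function and uses no measured value, although the group was proposed with earlier results of these data known. All 52 were found among the 55416 gene identifiers of the files and among the 16221 genes with enough reads to be tested. By name and known function, 22 were classed as soluble coat or tether proteins, 21 membrane cargo receptors (the Tmed, Lman, Kdelr, Ergic, Surf4 and Cnih proteins), 8 other membrane proteins and 1, Mcfd2, a luminal cofactor of a receptor. Tmed8 was classed with the receptors by its family name only. The cells were E14Tg2a.4 mouse embryonic stem cells, sequenced as poly(A) RNA. In all groups, controls included, their ribosomal protein Rpl31 bore FLAG and AviTag sequences joined by a cleavage site for TEV protease. Plasmids for both fragments of ALIBi (N- and C-terminal) had been transfected, and ALIBi biotinylates tagged ribosomes near the place to which it is directed. Ribosomes labelled at the ER (ER ribosome-bound RNA) or in the cytosol (cytosol ribosome-bound RNA) were affinity purified in cycloheximide, and RNA of the same lysates before purification was sequenced as ER whole-cell and cytosol whole-cell RNA, with 3 libraries in each of these 4 groups. The labels do not give the promoter of the plasmids, the share of cells that took them up, or whether the tagged line is 1 clone.

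COPII coats bud vesicles from the ER: Sec23 and Sec24 form the inner layer, with Sec24 binding cargo, and Sec13 and Sec31 form the outer cage. COPI coats, built from coatomer, carry escaped ER proteins and Golgi residents backwards. Coat proteins are made in the cytosol and bind membranes for a short time, whereas cargo receptors are inserted into the ER membrane while they are being translated, so their mRNAs are classical clients of ER-bound ribosomes. Tail-anchored proteins, which carry their only membrane segment at the very end, are inserted after translation.

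Each library held 21.1 to 26.9 M reads assigned to genes. Rpl31, the tagged gene, lay at 1053 to 1065 CPM (a gene's share of its TMM-scaled library) in ER ribosome-bound, 947 to 984 CPM in cytosol ribosome-bound, 1091 to 1165 CPM in ER whole-cell and 1102 to 1170 CPM in cytosol whole-cell RNA. Reads of all 10 stem cell markers, among them Pou5f1, Sox2 and Nanog, were present in every library, with a summed level of 14100 to 14690 CPM in ER ribosome-bound, 11100 to 11330 CPM in cytosol ribosome-bound and 9010 to 9339 CPM in whole-cell RNA. The fibroblast markers, 4 of 5 tested and Thy1 the highest, summed to 88.3 to 92.5 CPM in ER ribosome-bound, 30.5 to 32.3 CPM in cytosol ribosome-bound and 35.0 to 37.6 CPM in whole-cell RNA, and each of the endoderm, mesoderm and neural lists to between 7.79 and 20.3 CPM. The fibroblast markers are collagens and cell-surface proteins. The part of these marker lists in the results was not tested. In such bulk samples a lower level can mean fewer cells with an mRNA or less of it per cell, which cannot be told apart.

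The first comparison asked which of these mRNAs sat on ER-labelled rather than cytosol-labelled ribosomes. Membrane and luminal members separated from soluble coats and tethers. Of the 21 receptor mRNAs, 20 were higher on ER-labelled ribosomes, each by over 2-fold, with a median log2 ratio of 1.97. Of the 8 other membrane proteins 7 were higher, 6 of them by over 2-fold, and Mcfd2 was 3.35-fold higher. None of the 22 soluble members passed 2-fold: 6 were higher, 10 lower and 6 not called, with a median of -0.07 and a range of -0.44 to 0.34. The 6 became 4 in most repeats with 1 library left out and 3 without ER ribosome-bound replicate 2. Over all members 34 were higher and 11 lower (edgeR's quasi-likelihood test, Benjamini-Hochberg adjusted p under 0.05), where 29.1% of all genes tested were higher, 24.6% lower and 18.1% higher by over 2-fold, with a median of 0.00. All 3 ER ribosome-bound libraries lay above all 3 cytosol ribosome-bound libraries for 28 of the 30 membrane and luminal members, the exceptions being Tmed8 and Preb, where 31% of all genes tested separated in this way. When libraries were instead scaled on 86 genes for cytosolic proteins, the median over all genes shifted up by 0.268 (log2), and this gave 45 higher members and 1 lower, with 16 soluble members higher and 1 lower, so the direction of small differences among soluble members rests on the scaling, while 27 members were past 2-fold under both.

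**Figure D1:**
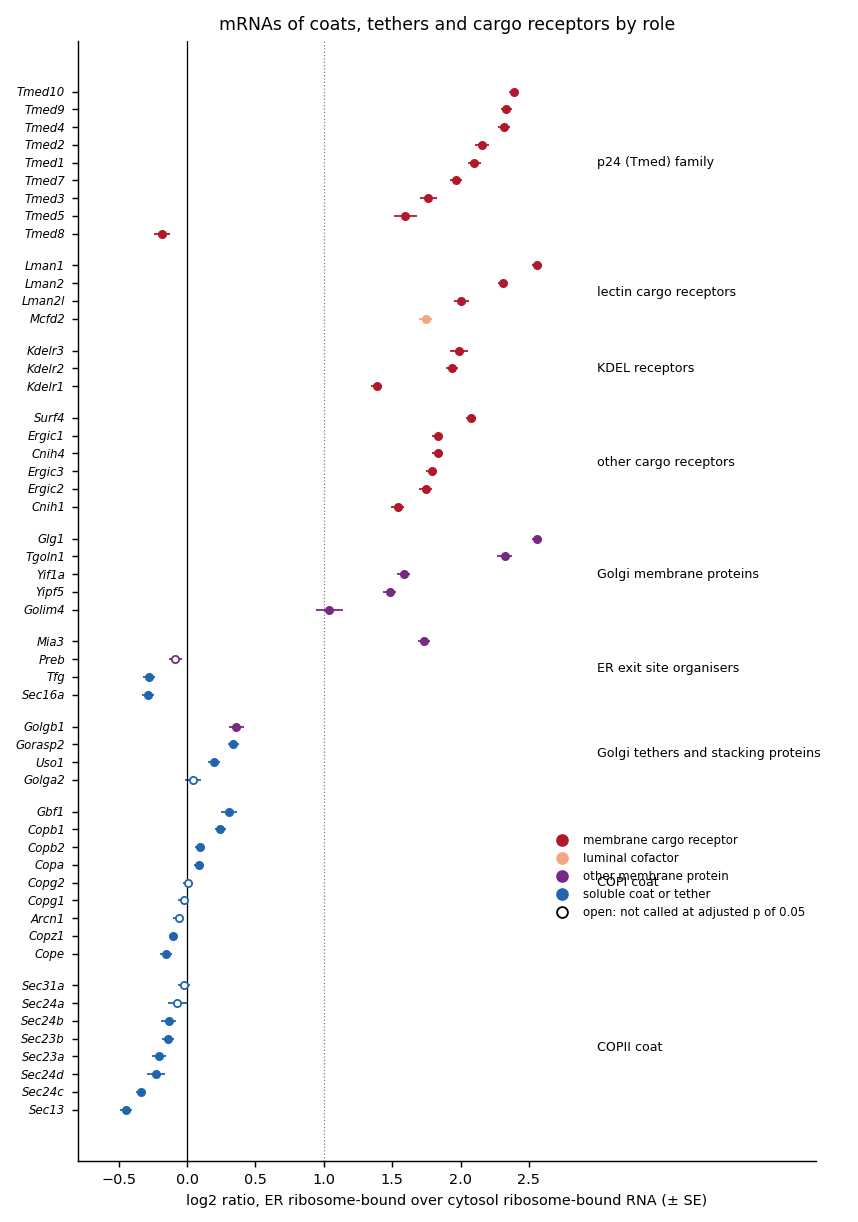
Log2 ratio of ER ribosome-bound over cytosol ribosome-bound RNA (x axis, with SE) for each of the 52 members, in rows by role; colours give the kind of protein, open points were not called, and the dotted line marks a 2-fold difference. Receptors lie between 1.39 and 2.56 apart from Tmed8 at -0.19, and soluble members between -0.44 and 0.34.

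Summed over their genes, the 21 receptors held 4380 to 4396 CPM in ER ribosome-bound RNA, 1042 to 1091 CPM in cytosol ribosome-bound RNA, 1453 to 1493 CPM in ER whole-cell RNA and 1447 to 1479 CPM in cytosol whole-cell RNA. The 22 soluble members summed to 1713 to 1776 CPM in ER ribosome-bound, 1783 to 1799 CPM in cytosol ribosome-bound, 2175 to 2201 CPM in ER whole-cell and 2125 to 2161 CPM in cytosol whole-cell RNA. In summed CPM the receptors thus exceeded the soluble members on ER-labelled ribosomes and lay below them in the other groups. These sums were not divided by transcript length, and longer transcripts give more reads. They therefore do not rank the classes by number of mRNA molecules, and the order per kilobase can differ.

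The p24 proteins of the Tmed family cycle between ER and Golgi and recruit cargo, GPI-anchored proteins among them, into coated vesicles. Of the 9 measured, 8 were higher on ER-labelled ribosomes, at log2 ratios of 1.6 (Tmed5), 1.77 (Tmed3), 1.97 (Tmed7), 2.10 (Tmed1), 2.16 (Tmed2), 2.32 (Tmed4), 2.34 (Tmed9) and 2.39 (Tmed10). Tmed10, which also binds coatomer through its tail, stood at 496, 514 and 502 CPM in the ER ribosome-bound libraries, against 95.3, 95.7 and 97.7 CPM in the cytosol ribosome-bound libraries. The groups lay far apart, with a log2 ratio of 2.39 (SE 0.035, adjusted p = 1.1e-34). Tmed8, placed in the family by name, differed from the other 8. It stood at 29.4, 29.4 and 31.8 CPM in ER ribosome-bound and 35.8, 33.5 and 33.7 CPM in cytosol ribosome-bound libraries, so that every ER library was the lower one. Its log2 ratio was -0.19 (SE 0.058, adjusted p = 0.0068), which became 0.08 with cytosolic scaling.

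The coding sequences show a difference between Tmed8 and its relatives. The first 40 codons of Tmed10 and of Tmed8 are printed below from the GENCODE M21 annotation (5′ to 3′), because the N terminus holds the signal that a protein presents first to the ER. Capitals mark the codons of a hydrophobic segment, a window of 19 residues with a mean Kyte-Doolittle hydropathy of at least 1.6.
Tmed10: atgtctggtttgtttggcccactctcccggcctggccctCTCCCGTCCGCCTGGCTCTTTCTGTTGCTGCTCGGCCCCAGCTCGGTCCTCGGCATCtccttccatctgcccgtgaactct
Tmed8: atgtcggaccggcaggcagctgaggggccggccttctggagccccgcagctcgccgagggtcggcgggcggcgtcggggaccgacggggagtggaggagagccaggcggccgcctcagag
Tmed10 carries such a segment from residue 14, whereas Tmed8 has none in these codons and none in its 326 residues. The most hydrophobic stretch of 11 residues at the N terminus had a mean hydropathy of 0.11 in Tmed8 and of 1.99 to 2.96 in the other 8 p24 proteins.

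Lectin receptors pick up glycoproteins by their sugars. Lman1, the ER-Golgi carrier of coagulation factors, had the highest log2 ratio of all members, at 541, 533 and 531 CPM in ER ribosome-bound and 87.6, 89.8 and 94.6 CPM in cytosol ribosome-bound libraries. The log2 ratio was 2.56 (SE 0.036, adjusted p = 7.9e-35), a 5.90-fold difference. Mcfd2, the soluble luminal partner of Lman1, gave 119, 116 and 122 CPM in ER ribosome-bound against 36.8, 35.2 and 34.2 CPM in cytosol ribosome-bound libraries, or 1.75 (SE 0.048, adjusted p = 1.7e-27). Both mRNAs of this complex were therefore higher at the ER, the receptor by more than its cofactor. Lman2l had the lowest ratio of the membrane lectins, with 63.3, 61.8 and 65.4 CPM in ER ribosome-bound and 15.4, 14.6 and 17.4 CPM in cytosol ribosome-bound libraries (log2 ratio 2.01, SE 0.057, adjusted p = 7.3e-27). Lman2, at 2.31, lay between them.

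KDEL receptors catch escaped ER chaperones in the Golgi and return them in COPI vesicles. Kdelr3 stood at 167, 178 and 158 CPM in ER ribosome-bound and 46.0, 37.4 and 43.5 CPM in cytosol ribosome-bound libraries, a log2 ratio of 1.99 (SE 0.066, adjusted p = 9.2e-25). Kdelr1 gave 157, 153 and 158 CPM in ER ribosome-bound against 60.0, 58.0 and 60.8 CPM in cytosol ribosome-bound libraries, or 1.39 (SE 0.039, adjusted p = 6.1e-27). With Kdelr2 at 1.94, Kdelr1 had the lowest ratio of the 3 and of all receptors that were higher at the ER. Per kilobase of transcript Kdelr1 was the most abundant of the 3 in ER whole-cell RNA, at 48.2 ± 1.7 CPM per kb (SD, n = 3) against 39.4 ± 5.0 for Kdelr3 and 32.6 ± 0.8 for Kdelr2. In ER ribosome-bound RNA Kdelr3 was first, at 119 ± 7.0 CPM per kb, and Kdelr1, at 97.4 ± 1.4, and Kdelr2, at 94.4 ± 3.2, differed by less than the larger of their SDs.

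Surf4 exports soluble cargo, the Ergic proteins cycle through the intermediate compartment, and the cornichons Cnih1 and Cnih4 export growth factor precursors and receptors. All 6 were higher at the ER. Surf4 led them, with 393, 401 and 401 CPM in ER ribosome-bound and 88.9, 95.8 and 98.8 CPM in cytosol ribosome-bound libraries (log2 ratio 2.08, SE 0.038, adjusted p = 1.3e-32). Cnih1 had the lowest ratio, with 147, 147 and 151 CPM in ER ribosome-bound and 48.9, 53.2 and 50.8 CPM in cytosol ribosome-bound libraries (1.54, SE 0.045, adjusted p = 1.2e-26). Its paralog Cnih4 gave 180, 179 and 176 CPM in ER ribosome-bound against 49.8, 48.9 and 51.4 CPM in cytosol ribosome-bound libraries, or 1.83 (SE 0.043, adjusted p = 1.8e-29). The 3 Ergic mRNAs lay close together, at 1.83 (SE 0.040) for Ergic1, 1.79 (SE 0.040) for Ergic3 and 1.75 (SE 0.047) for Ergic2. Ergic1 stood at 275, 267 and 273 CPM in ER ribosome-bound and 76.4, 74.8 and 77.3 CPM in cytosol ribosome-bound libraries. Ergic2 stood at 101, 97.1 and 107 CPM in ER ribosome-bound and 30.4, 30.1 and 30.4 CPM in cytosol ribosome-bound libraries. The libraries of both groups were well apart for each of the 6.

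All 5 Golgi membrane proteins were higher at the ER, over a wide range. Glg1, a large sialoglycoprotein, matched Lman1, with 683, 672 and 686 CPM in ER ribosome-bound and 113, 112 and 122 CPM in cytosol ribosome-bound libraries (log2 ratio 2.56, SE 0.037, adjusted p = 7.9e-35). Tgoln1, a trans-Golgi protein, reached 2.32, and the multispanning Yif1a and Yipf5 1.58 and 1.48. Golim4, a cycling Golgi protein, had the lowest ratio, with 12.6, 16.0 and 13.2 CPM in ER ribosome-bound against 6.93, 6.12 and 7.30 CPM in cytosol ribosome-bound libraries. Its log2 ratio of 1.04 (SE 0.10, adjusted p = 3.7e-11) lay at the 2-fold line and came to 0.86 without ER ribosome-bound replicate 2 and 0.91 without cytosol ribosome-bound replicate 2.

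Among 4 organisers of ER exit sites 1 was higher, 2 were lower and 1 was not called. Mia3 (TANGO1), which helps to load procollagen, gave 118, 118 and 115 CPM in ER ribosome-bound and 34.8, 36.6 and 34.4 CPM in cytosol ribosome-bound libraries (log2 ratio 1.73, SE 0.042, adjusted p = 5.5e-29). The soluble scaffold Sec16a gave 48.2, 47.6 and 46.4 CPM in ER ribosome-bound against 59.7, 55.6 and 58.1 CPM in cytosol ribosome-bound libraries, a log2 ratio of -0.29 (SE 0.046, adjusted p = 1.5e-06), and Tfg, which joins exit sites, gave -0.28. Preb (Sec12), the membrane exchange factor that activates Sar1 and starts COPII assembly, stood at 57.4, 57.0 and 59.1 CPM in ER ribosome-bound and 57.9, 63.9 and 62.1 CPM in cytosol ribosome-bound libraries. These ranges overlapped, and its log2 ratio of -0.08 (SE 0.045, adjusted p = 0.12) was not called. It was called lower, at -0.12 to -0.16, when any 1 of 10 of the 12 libraries was left out, and higher, at 0.18, with cytosolic scaling. It was also called lower with RLE scaling (-0.13), with mitochondrially encoded genes left out (-0.14), with no filter (-0.15) and by DESeq2 (-0.13).

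Tethers and stacking proteins hold Golgi membranes together and capture vesicles. Golgb1 (giantin), a coiled-coil tether with a membrane anchor at its end, had the highest ratio of the 4, at 53.3, 51.99 and 49.5 CPM in ER ribosome-bound and 43.4, 37.3 and 39.9 CPM in cytosol ribosome-bound libraries. Every ER library was above every cytosol library, yet the log2 ratio was only 0.36 (SE 0.053, adjusted p = 3.1e-07). Gorasp2, a stacking protein held by a lipid, was higher by 0.34 and Uso1 (p115), a tether for COPI vesicles, by 0.20, a call that was lost at 0.10 (adjusted p = 0.067) without ER ribosome-bound replicate 2. Golga2 (GM130), the Golgi partner of p115, stood at 26.2, 25.3 and 24.02 CPM in ER ribosome-bound and 24.4, 25.3 and 23.6 CPM in cytosol ribosome-bound libraries, with overlapping ranges (0.04, SE 0.057, adjusted p = 0.54).

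Preb and Golgb1 are membrane proteins whose mRNAs nevertheless stayed under 2-fold. Preb, at -0.08, lay within the range of the soluble members, and Golgb1, at 0.36, just above their highest, Gorasp2 at 0.34. The last 40 codons of Preb and Golgb1 are shown because their membrane segments sit there (GENCODE M21, 5′ to 3′, capitals again marking the hydrophobic segment).
Preb: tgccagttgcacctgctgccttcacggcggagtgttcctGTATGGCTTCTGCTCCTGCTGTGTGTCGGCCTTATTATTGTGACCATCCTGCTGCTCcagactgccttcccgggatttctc
Golgb1: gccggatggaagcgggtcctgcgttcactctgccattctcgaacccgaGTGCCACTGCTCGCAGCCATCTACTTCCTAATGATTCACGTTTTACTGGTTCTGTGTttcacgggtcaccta
The segment starts at residue 391 of 417 in Preb, which has a weaker one at residue 314, and at residue 3215 of 3238 in Golgb1. This leaves 8 and 5 residues after it. Lman1, Lman2, Lman2l, Tmed3, Tmed7 and Tmed9 also had their only such segment near the C terminus, but with a hydrophobic N-terminal stretch of 1.97 to 2.96, against 1.61 in Preb and 0.35 in Golgb1.

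The sequence features can be set against all genes tested. A hydrophobic N terminus was taken as a segment, or an 11-residue stretch of at least 1.9, beginning within the first 40 residues. The level of 1.9 was chosen after the values were seen. Among 3219 genes tested that had one, 67.7% were higher by over 2-fold at the ER, against 0.852% of 8681 genes with neither that nor any segment, and 6.85% of 219 genes without it whose single segment lay at the C terminus. Of the members, 28 had a hydrophobic N terminus and 25 of these were higher by over 2-fold. The other 3 were the soluble proteins Sec23a, Sec23b and Arcn1, whose short stretches reached only 1.93 to 2.18. Of 2041 genes tested with other segments but no hydrophobic N terminus, 29.9% were higher by over 2-fold. This class held 8 members: the soluble Copb1, Gbf1, Sec24a, Sec24d and Uso1, and Preb, Yif1a and Yipf5. Of these only Yif1a and Yipf5 were higher by over 2-fold. The 15 members with neither a segment nor a hydrophobic N terminus, Tmed8 among them, all stayed under 2-fold.

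**Figure D2:**
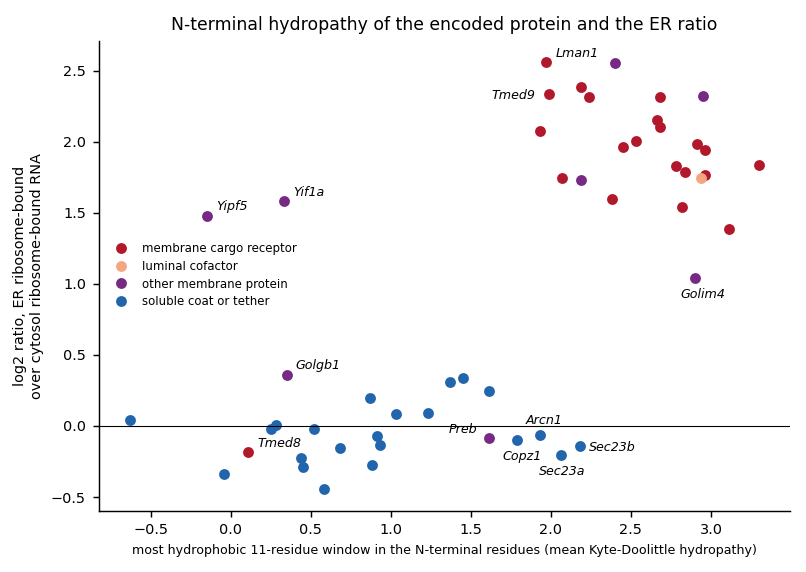
Most hydrophobic 11-residue stretch beginning within the first 40 residues of each encoded protein (x axis, mean Kyte-Doolittle hydropathy) against the log2 ratio of ER ribosome-bound over cytosol ribosome-bound RNA (y axis). Each point is 1 of the 52 members, coloured by kind of protein. Receptors gather at 1.93 or more on the x axis, apart from Tmed8 at 0.11, while Yif1a and Yipf5 are high on the y axis at 0.33 and -0.15 on the x axis.

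Coatomer mRNAs hardly differed between the pools. Of the 9 COPI members 4 were higher, 2 lower and 3 not called, with a median log2 ratio of 0.00, beside 29.1% higher and 24.6% lower among all genes tested. Gbf1, the exchange factor that activates Arf1 to recruit coatomer, had the highest ratio, with 28.6, 29.9 and 28.1 CPM in ER ribosome-bound and 24.9, 22.5 and 22.6 CPM in cytosol ribosome-bound libraries (0.31, SE 0.058, adjusted p = 2.3e-05). Cope, the epsilon subunit, had the lowest, with 81.0, 77.7 and 71.6 CPM in ER ribosome-bound and 87.2, 82.7 and 86.0 CPM in cytosol ribosome-bound libraries (-0.15, SE 0.045, adjusted p = 0.0041). The gamma subunits were not called and their libraries overlapped. Copg1 gave 100.1, 97.5 and 94.6 CPM in ER ribosome-bound against 104, 95.8 and 97.0 CPM in cytosol ribosome-bound libraries (-0.02, SE 0.040, adjusted p = 0.65), and Copg2 gave 125, 122 and 119 CPM in ER ribosome-bound against 123, 119 and 123 CPM in cytosol ribosome-bound libraries (0.00, SE 0.037, adjusted p = 0.93). Copb1 was higher by 0.24, Copz1 lower at -0.10, and Arcn1 was not called at -0.06. Copa and Copb2, both at 0.09, lost their calls when any 1 of 11 of the 12 libraries was left out (0.01 to 0.09), and Arcn1 was called lower in 9 of these 12 repeats (-0.15 to -0.10). The same changes of call came with RLE scaling, mitochondrially encoded genes left out, no filter and DESeq2, at 0.02 to 0.05 for Copa and Copb2 and -0.13 to -0.10 for Arcn1. The median over all genes tested also moved, by -0.041 with RLE scaling and by -0.058 with mitochondrially encoded genes left out. Calls on ratios this small therefore rest on the scaling.

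Of the 8 COPII members 6 were lower on ER-labelled ribosomes and none higher, with a median log2 ratio of -0.17, where 24.6% of all genes tested were lower. The 86 genes for cytosolic proteins had 67 lower and a median of -0.24, so the COPII median was no lower than theirs. Sec13 had the lowest ratio of all 52 members, with 64.0, 64.6 and 63.4 CPM in ER ribosome-bound and 84.4, 91.9 and 85.0 CPM in cytosol ribosome-bound libraries (-0.44, SE 0.042, adjusted p = 2e-11). Its partner in the outer cage, Sec31a, did not follow it, with 66.5, 77.1 and 70.2 CPM in ER ribosome-bound against 72.7, 70.4 and 74.0 CPM in cytosol ribosome-bound libraries (-0.02, SE 0.045, adjusted p = 0.73), although it was called lower, at -0.15, without ER ribosome-bound replicate 2. Sec13 also serves in nuclear pores. Among the cargo-binding Sec24 proteins Sec24c had the lowest ratio, with 86.5, 83.8 and 85.1 CPM in ER ribosome-bound and 107, 108 and 108 CPM in cytosol ribosome-bound libraries (-0.34, SE 0.038, adjusted p = 1.6e-09). Sec24a had the highest, with 18.4, 16.7 and 16.8 CPM in ER ribosome-bound and 17.8, 19.8 and 16.9 CPM in cytosol ribosome-bound libraries (-0.07, SE 0.069, adjusted p = 0.41). It was called lower, at -0.18 (adjusted p = 0.047), without ER ribosome-bound replicate 1. Sec24b and Sec24d lay between them at -0.14 and -0.23. The libraries of Sec24b overlapped, and its call was lost in 2 of 12 repeats with 1 library left out (-0.13 and -0.10, adjusted p of 0.068 to 0.14). The Sec23 pair was close: Sec23a gave 45.2, 42.0 and 39.6 CPM in ER ribosome-bound against 47.8, 50.1 and 48.4 CPM in cytosol ribosome-bound libraries (-0.21, SE 0.050, adjusted p = 6e-04), and Sec23b gave 60.5, 59.9 and 53.3 CPM in ER ribosome-bound against 63.9, 63.8 and 63.8 CPM in cytosol ribosome-bound libraries (-0.14, SE 0.047, adjusted p = 0.011). With cytosolic scaling Sec13 alone of the COPII and COPI members stayed called lower.

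**Figure D3:**
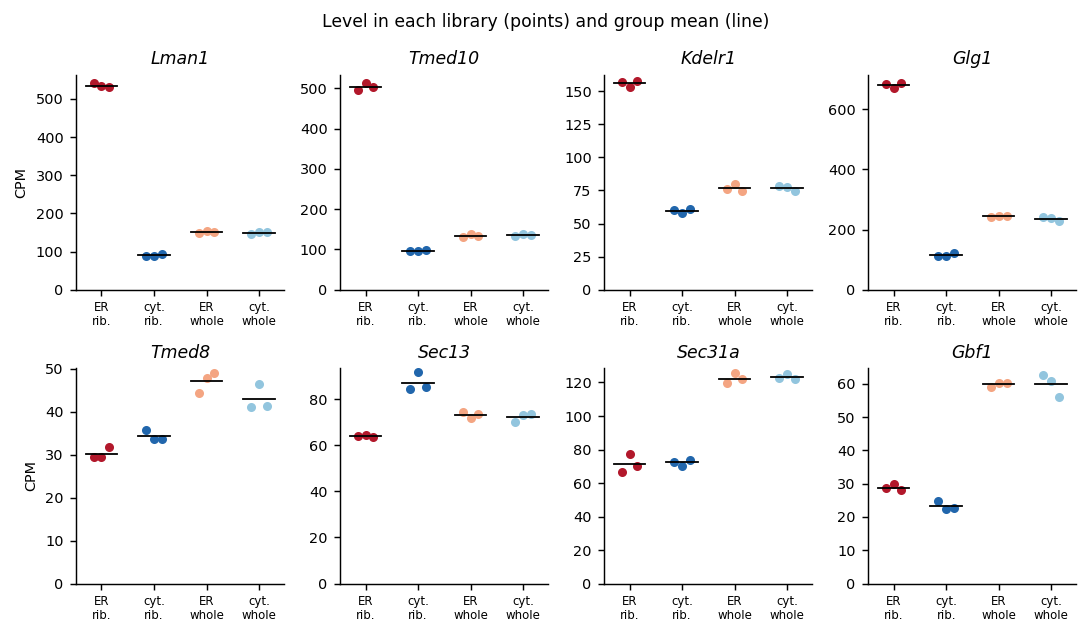
Level in CPM (y axis, from 0) of 8 members in each library of the 4 groups; points are libraries, lines are means of 3, and "rib." and "whole" stand for ribosome-bound and whole-cell RNA. Lman1, Tmed10, Kdelr1 and Glg1 are highest in the ER ribosome-bound libraries and lowest in the cytosol ribosome-bound ones, whereas Tmed8, Sec31a and Gbf1 are lower in both ribosome pools than in whole-cell RNA.

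Each pool was also compared with whole-cell RNA of its own lysates. On ER-labelled ribosomes 29 members were higher than in ER whole-cell RNA and 19 lower, where 32.5% and 30.6% of all genes tested were called in these directions. The 29 held 20 receptors, 18 of them past 2-fold (16.5% of all genes), and the 19 held 17 of the 22 soluble members. Tmed9 had the highest log2 ratio, 2.05 (SE 0.040, adjusted p = 2.9e-31), and Sec16a the lowest, at -1.35 (SE 0.044, adjusted p = 6.3e-25), with 48.2, 47.6 and 46.4 CPM in ER ribosome-bound against 119, 125 and 119 CPM in ER whole-cell libraries. On cytosol-labelled ribosomes the order of the classes was different: 39 members were lower than in cytosol whole-cell RNA and 5 higher, where 33% and 20.8% of all genes were called. Of the 39, 4 were lower by over 2-fold (3.66% of all genes). Of the 21 receptors 20 were lower, between -0.79 and -0.20, and Tmed3 was not called. Lman1 gave 87.6, 89.8 and 94.6 CPM in cytosol ribosome-bound and 146, 152 and 152 CPM in cytosol whole-cell libraries (-0.73, SE 0.037, adjusted p = 1.3e-18). Glg1 fell furthest of the membrane members, to 113, 112 and 122 CPM in cytosol ribosome-bound against 240.2, 238 and 230 CPM in cytosol whole-cell libraries (-1.03, SE 0.036, adjusted p = 3.6e-23).

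In all, 19 receptors were both higher on ER-labelled ribosomes and lower on cytosol-labelled ones than in whole-cell RNA, where 10.9% of all genes tested were. Lower in both were 14 soluble members, against 18.7% of all genes tested. Tmed8 was also lower in both, at -0.64 over ER whole-cell and -0.32 over cytosol whole-cell RNA, and so did Golgb1, at -0.74 and -1.01. Gorasp2 was the only soluble member higher in both pools, at 0.69 and 0.41, and Preb the only membrane member, at 0.11 (adjusted p = 0.04) and 0.18 (adjusted p = 0.001). The first of these Preb calls was lost without any 1 of the ER ribosome-bound or ER whole-cell libraries (adjusted p of 0.052 to 0.11). Yif1a and Yipf5 were higher over ER whole-cell RNA, by 1.78 and 1.55, and were not called over cytosol whole-cell RNA at 0.13 and 0.08, though they were called higher in 10 and 7 of the 12 repeats with 1 library left out. With cytosolic scaling, which raised the ER ratio of all genes by 0.284, 7 soluble members were higher and 11 lower over ER whole-cell RNA, and Sec13 and Tfg turned from -0.20 and -0.14 to 0.09 and 0.14.

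**Figure D4:**
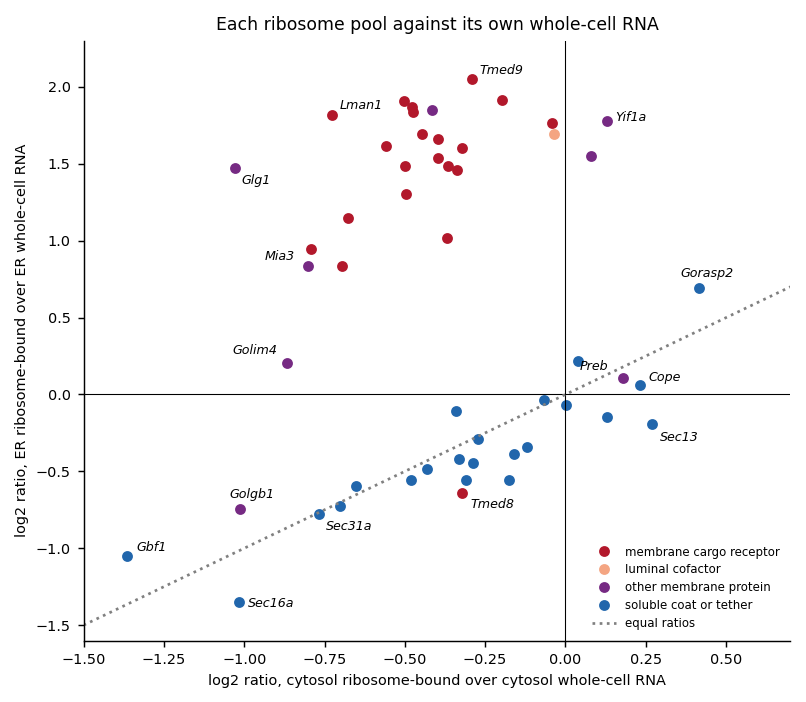
Log2 ratio of cytosol ribosome-bound over cytosol whole-cell RNA (x axis) against ER ribosome-bound over ER whole-cell RNA (y axis) for the 52 members, coloured by kind of protein, with a dotted line where both ratios are equal. Soluble members lie along the line from Gbf1 and Sec16a to Gorasp2, with Tmed8, Preb and Golgb1 beside them, and receptors lie in the upper left.

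Soluble members differed more among themselves in these ratios than between the pools, and the order went with length. The 9 soluble proteins of over 1000 residues were all lower over ER whole-cell RNA, with a median of -0.60, and 8 of them lower over cytosol whole-cell RNA, with a median of -0.65. Gbf1, of 1861 residues, was the lowest in the cytosol at -1.36 (SE 0.053, adjusted p = 9.3e-22), with 24.9, 22.5 and 22.6 CPM in cytosol ribosome-bound and 62.7, 61.0 and 56.0 CPM in cytosol whole-cell libraries. Of the 5 soluble proteins under 500 residues, Sec13, Tfg, Cope and Gorasp2 were higher over cytosol whole-cell RNA, at 0.27, 0.13, 0.23 and 0.41, and Copz1 was not called. Tfg lost its call without cytosol ribosome-bound replicate 1 (0.10, adjusted p = 0.072). Spearman's rho between protein length and log2 ratio across the 22 soluble members was -0.68 over ER whole-cell and -0.69 over cytosol whole-cell RNA, and -0.25 and -0.37 across the 30 membrane and luminal members. Across 14160 genes tested with an annotated protein it was -0.29 and -0.38, so longer genes in general had lower ratios. With transcript length, rho was -0.8 over ER whole-cell and -0.79 over cytosol whole-cell RNA in the soluble members. It was -0.44 and -0.37 in the membrane and luminal members, and -0.27 and -0.42 across the 14160 genes. Whether the ratios go with protein length or with transcript length was not tested. These are descriptions: the genes share the same libraries and are no independent replicates, and the part of length in the result was not tested. Between the 2 ribosome pools rho with protein length was 0.16 in the soluble members. For genes with no hydrophobic segment the share called lower over cytosol whole-cell RNA was 69% of 1066 genes over 1000 residues and 15.3% of 5347 genes under 500 residues. For Mia3 the annotated transcript used for lengths, hydrophobic segments and the N-terminal stretch encodes a short form of 781 residues.

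**Figure D5:**
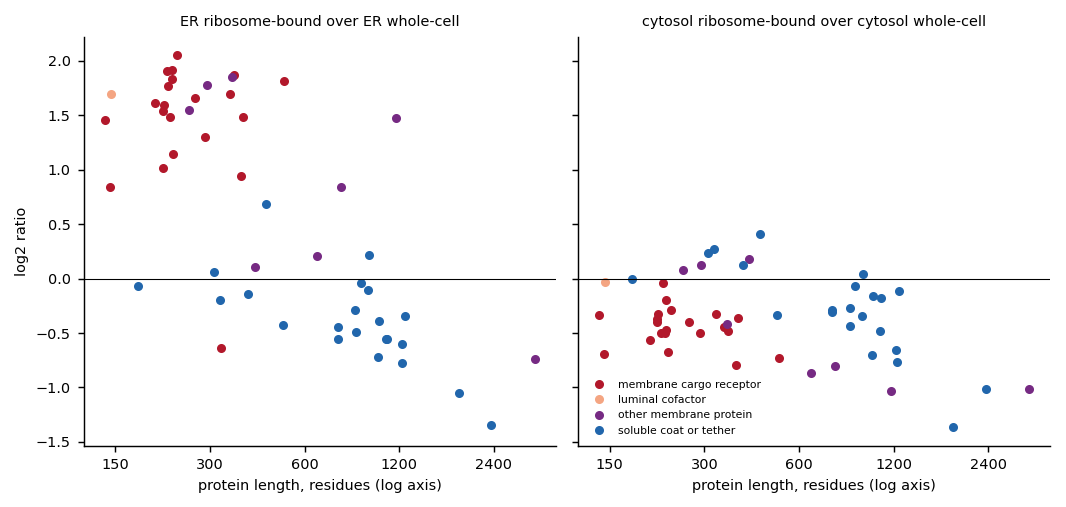
Length of the encoded protein in residues (x axis, log scale) against the log2 ratio of ER ribosome-bound over ER whole-cell RNA on the left and cytosol ribosome-bound over cytosol whole-cell RNA on the right, for the 52 members coloured by kind of protein. Soluble members tend downwards with length in both panels. Their highest ratios are those of Gorasp2, at 0.69 and 0.41, and their lowest those of Sec16a at -1.35 on the left and Gbf1 at -1.36 on the right.

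Whole-cell RNA of ER-targeted and cytosol-targeted cells served as the background. None of the 52 members, and 0 of 16221 genes, differed by edgeR's quasi-likelihood test or by DESeq2. At an unadjusted p under 0.05 there were 634 genes, among them the members Mia3, Tmed5, Tmed8 and Lman2l, and member ratios ran from -0.23 to 0.13. The difference of both enrichments, which subtracts these inputs, was positive for 32 members and negative for 10 (24.8% and 18.6% of all genes tested), and 27 passed 2-fold (17.6%). It was 2.55 (SE 0.051, adjusted p = 5.1e-30) for Lman1, 2.5 (SE 0.050) for Glg1, 2.41 (SE 0.050) for Tmed10, 2.06 (SE 0.054) for Surf4 and 1.38 (SE 0.056) for Kdelr1, and -0.47 (SE 0.060, adjusted p = 3.5e-08) for Sec13. This comparison shares its ribosome-bound libraries with the first and is no independent evidence.

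Levels of paralogs were compared per kilobase of transcript. In ER whole-cell RNA Tmed10, at 90.7 ± 1.9 CPM per kb (SD, n = 3), and Tmed9, at 67.4 ± 0.5, led the p24 family, and Tmed8, at 6.35 ± 0.33, and Tmed5, at 2.60 ± 0.14, were its least abundant members. In ER ribosome-bound RNA Tmed10 and Tmed9 reached 340 ± 6.1 and 279 ± 1.5 CPM per kb, and Tmed8, at 4.07 ± 0.19, was last, below Tmed5 at 5.79 ± 0.37. Sec24c was the most abundant Sec24 in ER whole-cell RNA, at 28.1 ± 1.1 CPM per kb, followed by Sec24b at 11.3 ± 0.3, Sec24d at 6.41 ± 0.44 and Sec24a at 3.85 ± 0.15, and this order was the same in all 4 groups. Sec23b exceeded Sec23a, at 28.4 ± 1.3 against 15.1 ± 0.5 CPM per kb, and Copg2 exceeded Copg1, at 37.7 ± 1.2 against 33.0 ± 0.8 CPM per kb.

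For other genes of the pathway, the counts stand beside 29.1% higher and 24.6% lower among all genes tested. All 8 tested membrane receptors and escorts outside the 52, from Cnih2 at a log2 ratio of 0.79 to Bcap31, which escorts membrane proteins, at 2.22, were higher on ER-labelled than on cytosol-labelled ribosomes, and so were all 8 tested Yip and Yif family proteins, from Yipf1 at 1.36 to Tvp23b at 1.83. Of the 8 subunits of the COG tether, a soluble complex for transport within the Golgi, 7 were lower, down to -0.38 for Cog6, and none higher; Cog1 was the highest at -0.08. TRAPP tethers had 4 lower of 14, near the share of all genes, but only 1 higher, from Trappc8 at -0.35 to Trappc5 at 0.54. The Dsl1 tether had 1 lower and 1 higher of 3, from Zw10 at -0.13 to Nbas at 0.66. Golgins and stacking proteins had 3 higher of 10, near the share of all genes, but none lower, from Gcc1 at -0.19 to Gcc2 at 0.37. Cytosolic regulators of coats had 7 lower and 1 higher of 12, from Sec23ip at -0.38 to Arfgef2 at 0.32. The early secretory SNAREs, which fuse vesicles and are mostly tail-anchored, had 7 lower and 2 higher of 13. The lowest was Stx17, at -0.45 (SE 0.11, adjusted p = 0.00042), and the higher ones were Sec22a, at 1.34 (SE 0.063, adjusted p = 4.9e-20), and Sec22c, named after its value was seen, at 1.12, while their tail-anchored relative Sec22b, likewise, was at -0.27. Whether these small ratios below 0 hold under cytosolic scaling was not computed for these lists.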

How the data were processed

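Poly(A) RNA was measured in 12 libraries, 3 in each of 4 groups given by the sample labels; the titles call the replicates biological but name no separate cultures, so a p-value reflects only how far these samples vary. The deposited files hold whole-number counts per gene, not normalized. Per the submitters' processing notes STAR 2.7.9a, HTSeq 0.11.2 and DESeq2 were used on GRCm39; for annotation release and strand setting the entry is: not given in the sources used here. Genes that overlap or have near-identical copies are therefore uncertain. Gene names, lengths and coding sequences came from GENCODE M21 on GRCm38, so no coordinates are printed; it matched 52083 identifiers, and the 3333 others held 0.41% of counts. Class totals outside genes (8.75% to 12.54% of reads) were left out.

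From these counts filterByExpr by group kept 16221 genes. With edgeR 4.0.16 (R 4.3.3, TMM scaling) a model of the 4 groups took in all 12 libraries. Its quasi-likelihood test gave 2-sided p-values for 5 comparisons, each adjusted by Benjamini-Hochberg over all genes, at 0.05. CPM values are shares of a library and say nothing of total RNA per pool. SEs were obtained by dividing the size of the log2 ratio by the root of its F statistic. The procedure was tested on simulated counts with 50 genes changed at each size. At 1.25-fold, 54% (difference of enrichments) to 68% (ER over cytosol ribosome-bound RNA) of them were recovered, and at 2-fold 88% to 96%. In the whole-cell comparison 56% were recovered at 1.25-fold, so differences of that size could be missed there. Replicates correlated at 0.9937 to 0.9947 across genes and differed by more than counting noise (chi-square per gene of at least 2.07). Members, lists and classes were chosen by function, with earlier results of these data known. All members could be named; values per library were given for the highest and lowest of each role group and paralog family and for membrane members not called higher. Alternatives were other scalings (RLE, 86 cytosolic genes, mitochondrially encoded genes left out), other filters, DESeq2 1.42.0, only the groups compared, a replicate block and each library left out.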

Additional observations from a re-analysis of the deposited data

Results flagged for a closer look

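For these members the ribosome-bound over whole-cell ratio differed between ER and cytosol targeting by the test of the difference itself (edgeR's quasi-likelihood test, adjusted p under 0.05). Among those named above the log2 difference, ER minus cytosol, was 2.55 for Lman1, 2.5 for Glg1, 2.41 for Tmed10, 2.06 for Surf4, 1.38 for Kdelr1 and 1.07 for Golim4. It was smaller for Gbf1 at 0.31, Gorasp2 at 0.28 and Golgb1 at 0.27, and negative for Sec13 at -0.47 and Tmed8 at -0.32. The call for Golgb1 was lost without cytosol ribosome-bound replicate 2 (0.16) or cytosol whole-cell replicate 2 (0.17).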

How the results depend on the processing

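Counts of members moved most under cytosolic scaling. It left 1 member lower on ER-labelled than on cytosol-labelled ribosomes (11 otherwise) and 1 with a negative difference of enrichments (10 otherwise). Under it the ER over cytosol ribosome-bound log2 ratio turned positive for Sec31a (0.25), Sec23a (0.06), Sec23b (0.13), Sec24a (0.20), Sec24b (0.13), Sec24d (0.04), Preb (0.18), Arcn1 (0.21), Cope (0.12), Copg1 (0.24), Copz1 (0.17) and Tmed8 (0.08), and the ER over whole-cell ratio for Sec13 (0.09) and Tfg (0.14). Golga2, not called, came to -0.01 with mitochondrially encoded genes left out and -0.02 with no filter on low counts. Leaving out mitochondrially encoded genes also gave 8 members higher over cytosol whole-cell RNA (5 otherwise). The cause of these shifts was not tested. With 1 library left out, Copg1 ran from -0.11 to 0.01 and Golga2 from -0.05 to 0.04, and members counted higher at the ER than in the cytosol pool ran from 31 to 34, lower from 10 to 14. Soluble members higher there ran from 3 to 6. No soluble member passed 2-fold upwards in that comparison under any setting run. With the replicate number as a block the counts were 34 higher and 11 lower for ER over cytosol ribosome-bound RNA, and only the negative differences changed, to 9. Same-numbered libraries correlated at -0.079 to 0.060, so the numbers were not taken as pairs. The comparison of only the groups involved gives no separate value for the difference of enrichments. Depth limits Golim4 most, at 6.12 to 16.0 CPM in the ribosome pools.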
